A study of Homo sapiens with 6 samples.

Results

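PC9 is a human cell line of EGFR-mutant non-small cell lung cancer. The transporters described here are 10 genes of amino acid carriers of the plasma membrane, chosen as a list of symbols and all found among the 36459 genes of the count table: SLC7A5, SLC3A2, SLC1A4, SLC1A5, SLC7A1, SLC38A1, SLC38A2, SLC6A9, SLC43A1 and SLC36A1. Their mRNA was compared between 3 libraries of parental PC9 cells grown without drug and 3 libraries of PS PC9 cells, the drug-tolerant persisters left after 6 days in 15 µM of the EGFR inhibitor erlotinib. PS PC9 material was pooled from several dishes, and all 6 libraries come from 1 cell line under 1 drug. Poly-A RNA was sequenced in bulk, so fewer cells of a kind and less RNA per cell cannot be told apart, nor can persistence and the presence of erlotinib, since no PC9 library was treated with the drug.

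Mammalian cells take up most amino acids through carriers of the solute carrier (SLC) families. Exchangers let one amino acid in for another that leaves, while sodium- and proton-coupled symporters build up the amino acids that exchangers then spend. SLC7A5 (LAT1) imports leucine and other large neutral amino acids in exchange for glutamine, and reaches the cell surface only when bound to the heavy chain SLC3A2 (CD98hc, 4F2hc). Leucine and arginine are sensed at the lysosome by the machinery that activates mTORC1. Many carrier genes are induced by the transcription factor ATF4 when amino acids are short, through a composite C/EBP-ATF response element.

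Because of that element, the promoters of the transporters were searched for its common core, TGATGNAA on either strand (TTNCATCA on the other). The windows are RefSeq's, on GRCh38.p14, and run 300 bases, from 250 bases before to 50 bases from the start on. The core occurred in 5 of the 18 windows of these 10 genes (27.8%) and in 1270 of 35116 windows of all genes (3.62%). Several windows of one gene are not independent, and a match is a description of the letters only. Some of these genes also belonged to a list of ATF4 targets examined earlier, so the 2 shares cannot test a link to ATF4. Of the 9 genes with a window at the start of their most-counted transcript, 2 held the core in that window, SLC1A4 and SLC7A1. Their windows are given here with the core in capitals, beside that of SLC7A5 and those at the upstream and the downstream start of SLC3A2, which hold no match. Each is written 5′ to 3′ along the gene: SLC1A4 at chr2:64989149-64989448 (plus strand), SLC7A1 at chr13:29595639-29595938 (minus strand), SLC7A5 at chr16:87869458-87869757 (minus strand), and SLC3A2 at chr11:62855859-62856158 and chr11:62880646-62880945 (plus strand).
SLC1A4: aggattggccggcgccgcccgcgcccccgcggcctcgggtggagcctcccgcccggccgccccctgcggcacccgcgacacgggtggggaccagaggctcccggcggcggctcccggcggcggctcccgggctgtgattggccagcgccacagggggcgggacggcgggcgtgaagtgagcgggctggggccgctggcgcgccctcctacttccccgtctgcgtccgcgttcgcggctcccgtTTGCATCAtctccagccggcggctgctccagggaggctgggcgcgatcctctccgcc
SLC7A1: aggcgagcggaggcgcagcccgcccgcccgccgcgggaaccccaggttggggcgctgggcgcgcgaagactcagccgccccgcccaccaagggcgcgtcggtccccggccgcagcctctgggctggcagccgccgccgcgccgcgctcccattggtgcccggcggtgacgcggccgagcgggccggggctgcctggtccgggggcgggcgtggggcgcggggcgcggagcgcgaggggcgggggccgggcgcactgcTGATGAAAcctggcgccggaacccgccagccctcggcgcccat
SLC7A5: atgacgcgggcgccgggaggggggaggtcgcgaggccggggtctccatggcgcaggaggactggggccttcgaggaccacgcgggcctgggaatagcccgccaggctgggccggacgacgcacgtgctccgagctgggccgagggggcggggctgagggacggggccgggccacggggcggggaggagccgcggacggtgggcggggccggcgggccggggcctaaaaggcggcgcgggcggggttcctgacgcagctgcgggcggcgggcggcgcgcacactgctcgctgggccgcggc
SLC3A2 upstream: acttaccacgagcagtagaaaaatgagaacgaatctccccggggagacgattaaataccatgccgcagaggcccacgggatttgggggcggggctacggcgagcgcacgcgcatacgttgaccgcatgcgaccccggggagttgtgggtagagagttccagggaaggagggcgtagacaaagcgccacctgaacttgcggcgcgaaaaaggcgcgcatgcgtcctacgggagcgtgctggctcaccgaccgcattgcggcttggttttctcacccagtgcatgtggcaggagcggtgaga
SLC3A2 downstream: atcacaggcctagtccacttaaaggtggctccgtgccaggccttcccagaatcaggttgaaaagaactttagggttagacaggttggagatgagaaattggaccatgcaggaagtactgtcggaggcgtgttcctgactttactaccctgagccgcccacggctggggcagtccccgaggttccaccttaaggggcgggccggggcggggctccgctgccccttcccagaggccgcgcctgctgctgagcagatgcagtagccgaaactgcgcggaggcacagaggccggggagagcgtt
The first base of the core lay 7 bases before the first base of the transcript (-7) in SLC1A4 and 7 bases after it in SLC7A1. Windows at other starts of SLC1A5 (-97), SLC38A1 (-4) and SLC3A2 (37 bases after the start) held the remaining 3 matches.

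Of the 10 transporters, 9 were higher in PS PC9 and none was lower, at an adjusted p under 0.01 (quasi-likelihood test of edgeR, p-values adjusted by Benjamini-Hochberg over 14626 tested genes). Of all tested genes, 28.7% were higher and 28.1% lower. With a log2 fold change above 1 asked for as well, 6 of the 10 were called, against 5.65% of all genes. The libraries of the 2 conditions did not overlap for 9 of the 10, with PS PC9 above, as for 35.5% of all genes. The median log2 fold change of the 10 was 1.14, beside -0.00613 over all tested genes. All 10 passed the filter on low counts, so no member is missing from these counts. Together they took 0.218% to 0.242% of the reads in PC9 and 0.780% to 0.794% in PS PC9.

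**Figure D1:**
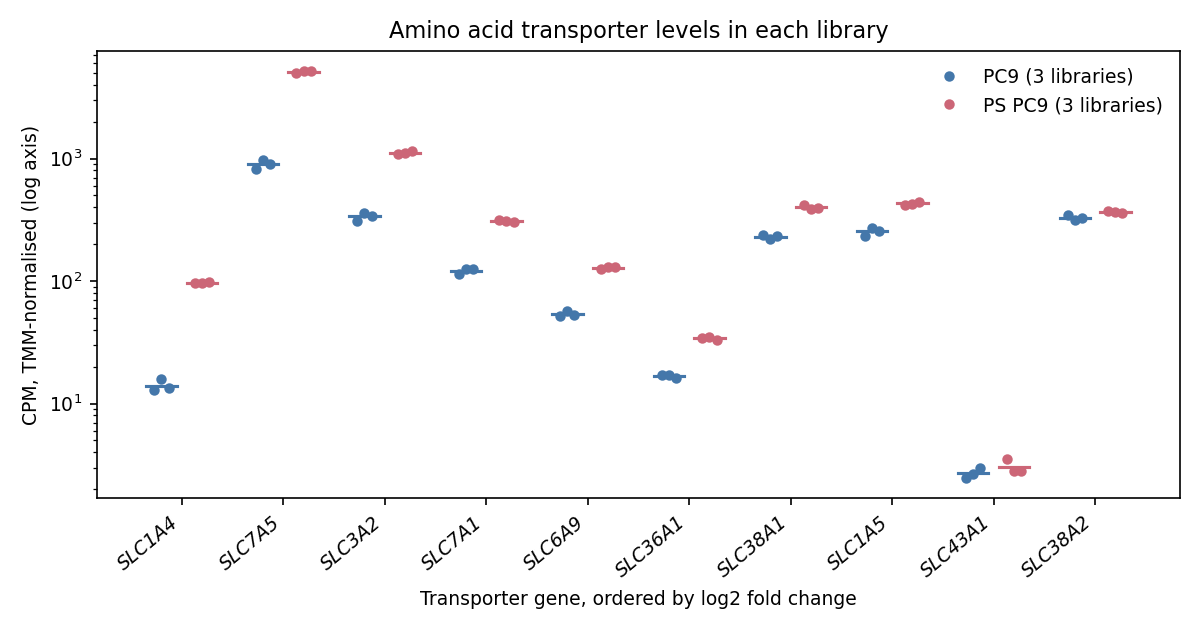
CPM (counts scaled to the TMM-normalised library size, log axis) of the 10 transporters in each library, with 3 points per condition and a bar at their mean, ordered by log2 fold change. PS PC9 libraries sit above PC9 libraries for every gene except SLC43A1, whose points overlap, and the separation is narrow for SLC38A2.

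The exchanger and its heavy chain carried most of the level. SLC7A5 (ENSG00000103257, chr16:87830023-87869507, minus strand) was at 828, 976 and 905 CPM in the PC9 libraries and at 5030, 5146 and 5182 in PS PC9. The lowest PS PC9 library thus stood far above the highest PC9 library, and the rise was 2.50 on the log2 scale (SE 0.0547, edgeR adjusted p = 6.19e-11). By p-value SLC7A5 was gene 41 of the 14626 tested genes. SLC3A2 (ENSG00000168003, chr11:62856004-62888880, plus strand) was at 311, 362 and 340 CPM in PC9 and at 1092, 1113 and 1148 in PS PC9. Its log2 fold change was 1.73 (SE 0.0527, edgeR adjusted p = 5.80e-10), so the heavy chain rose too, with no overlap of libraries.

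SLC43A1 (LAT3) carries large neutral amino acids by facilitated diffusion, without exchange and without SLC3A2. It had only 85 to 102 reads per library, at 2.47, 2.64 and 3.00 CPM in PC9 and 3.49, 2.80 and 2.81 in PS PC9. Those ranges overlapped, and its log2 fold change of 0.16 (SE 0.143, edgeR adjusted p = 0.337) did not pass the test.

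Among the neutral exchangers of the SLC1 family, the less abundant gene moved more. SLC1A4 (ASCT1, an exchanger of alanine, serine and cysteine) was at 13.0, 15.8 and 13.4 CPM in PC9 and at 95.8, 95.7 and 98.0 in PS PC9. This was the largest fold change of the 10, 2.78 on the log2 scale (SE 0.0650, edgeR adjusted p = 9.93e-11). SLC1A5 (ASCT2), the exchanger known for glutamine uptake in tumour cells, was at 235, 272 and 259 CPM in PC9 and at 421, 425 and 445 in PS PC9. It rose by 0.75 on the log2 scale (SE 0.0511, edgeR adjusted p = 2.74e-07). Of the 31-base words of its main transcript, 27.2% also occur in other genes, 26.3% in an antisense lncRNA that is not matched in the count table. The part of shared or antisense reads in the SLC1A5 value was not tested.

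The sodium-coupled symporters SLC38A1 (SNAT1) and SLC38A2 (SNAT2), which concentrate glutamine and other small neutral amino acids, lie near each other on chromosome 12 and moved unequally. SLC38A1 was at 239, 221 and 231 CPM in PC9 and at 418, 391 and 399 in PS PC9, with a log2 fold change of 0.80 (SE 0.0414, edgeR adjusted p = 3.27e-08). SLC38A2 was at 346, 316 and 328 CPM in PC9 and at 377, 363 and 363 in PS PC9. Its log2 fold change of 0.15 (SE 0.0405, edgeR adjusted p = 0.00573) was the smallest of the 9 calls. That call was lost in 7 of 14 alternative fits, namely with upper-quartile scaling, with library size only, and without any 1 of PC9 replicates 2 and 3 and PS PC9 replicates 1 to 3, where the adjusted p ran from 0.015 to 0.0413 and the log2 fold change from 0.10 to 0.16.

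The carriers of cationic, glycine and proton-coupled transport rose by 2.03 to 2.55 times. SLC7A1 (CAT1), the main carrier of arginine and lysine in many cells, was at 115, 125 and 125 CPM in PC9 and at 315, 309 and 306 in PS PC9, a log2 fold change of 1.35 (SE 0.0424, edgeR adjusted p = 7.09e-10). SLC6A9 (GLYT1), a sodium- and chloride-coupled glycine transporter, was at 51.8, 57.1 and 52.5 CPM in PC9 and at 126, 129 and 130 in PS PC9. That is 1.26 on the log2 scale (SE 0.0456, edgeR adjusted p = 2.13e-09). SLC36A1 (PAT1), a proton-coupled carrier of small amino acids found at lysosomes as well as at the cell surface, was at 17.0, 17.2 and 16.3 CPM in PC9 and at 34.4, 35.1 and 33.2 in PS PC9. Its log2 fold change was 1.02 (SE 0.0509, edgeR adjusted p = 2.56e-08), and for none of these 3 genes did libraries of the 2 conditions overlap.

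To compare levels between genes, counts were divided by transcript length and scaled to the library's sum (TPM). SLC7A5 led in both conditions, with 385 ± 39.0 TPM in PC9 and 2268 ± 36.8 in PS PC9 (SD, n = 3). Among 36074 genes its place by TPM went from 324 to 45. SLC3A2 followed at 337 ± 28.9 and 1164 ± 28.5 TPM, and its place went from 391 to 112.

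Below these came SLC1A5, SLC38A2, SLC38A1, SLC6A9, SLC7A1, SLC1A4, SLC36A1 and SLC43A1, in the same order in both conditions. SLC43A1 closed the order with 2.55 ± 0.142 TPM in PC9 and 2.60 ± 0.451 in PS PC9. Of the 9 pairs of neighbours, SLC7A5 and SLC3A2 overlapped across PC9 libraries, and no pair overlapped in PS PC9. SLC1A4 stayed eighth although it rose from 7.05 ± 1.37 to 44.1 ± 1.01 TPM, since SLC7A1 above it went from 31.9 ± 2.20 to 83.7 ± 3.46.

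Summed over the 10 genes, the level was 1147, 1299 and 1225 TPM in PC9 and 4385, 4226 and 4352 in PS PC9, 3.53 times higher on average. The ranges did not overlap, and the exact two-sided permutation test gave p = 0.1, the smallest that 3 against 3 libraries allow. SLC7A5 made up 30.1% to 32.5% of the sum in PC9 and 52.3% to 52.7% in PS PC9. SLC38A1 and SLC38A2 together fell in share from 16.0% to 20.5% in PC9 to 6.97% to 7.38% in PS PC9, although neither was lower in CPM.

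**Figure D2:**
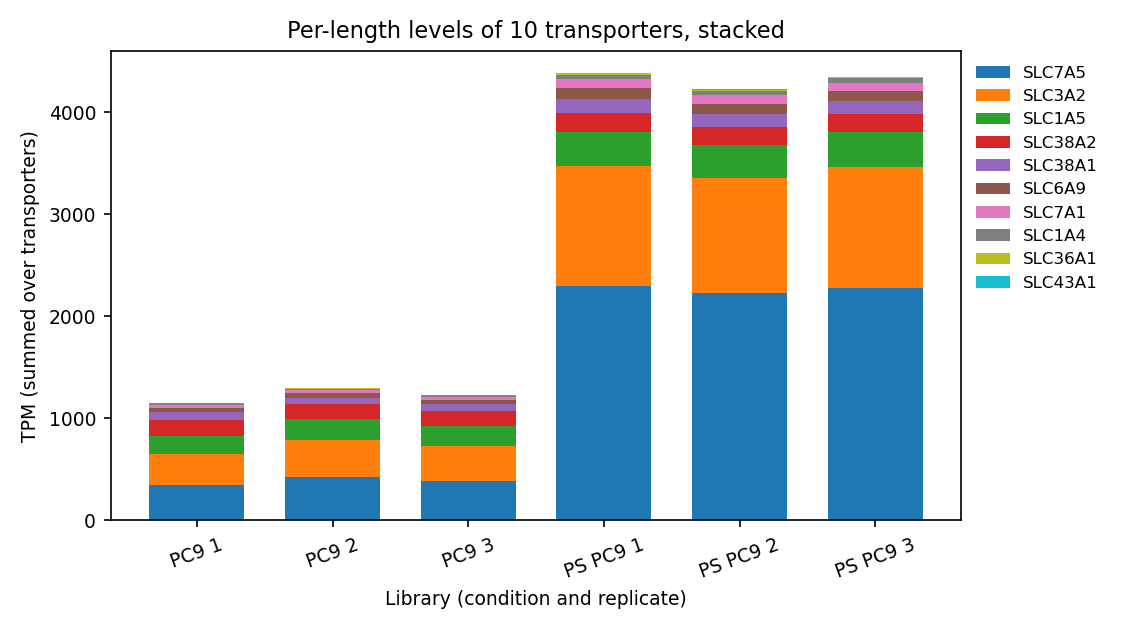
Stacked TPM of the 10 transporters in each of the 6 libraries, linear axis from 0. The sum is 1147 to 1299 TPM in PC9 and 4226 to 4385 in PS PC9, and SLC7A5 and SLC3A2 fill most of the added height.

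Ratios of TPM within a library show the unequal changes of related carriers directly. In all, 4 were computed, and the exact two-sided permutation test gave p = 0.1 for each, also after Benjamini-Hochberg adjustment, the smallest value possible here. SLC7A5 to SLC3A2 was 1.12, 1.16 and 1.14 in PC9 and 1.96, 1.97 and 1.92 in PS PC9. The mRNA of the light chain thus went from 1.14 to 1.95 times that of the heavy chain (geometric means), a difference of 0.77 on the log2 scale. Protein levels of the chains were not measured here.

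SLC1A4 to SLC1A5 went from 0.0358, 0.0414 and 0.0320 to 0.134, 0.132 and 0.130, so SLC1A5 remained the more abundant of the pair in every library. SLC38A2 to SLC38A1 was 2.21, 2.20 and 2.15 in PC9 and 1.34, 1.43 and 1.45 in PS PC9. This was the only ratio of the 4 to be lower in PS PC9, by -0.64 on the log2 scale. The ratio of the leucine exchanger SLC7A5 to the facilitator SLC43A1 rose from 150.9 to 882 (geometric means), on few SLC43A1 reads.

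**Figure D3:**
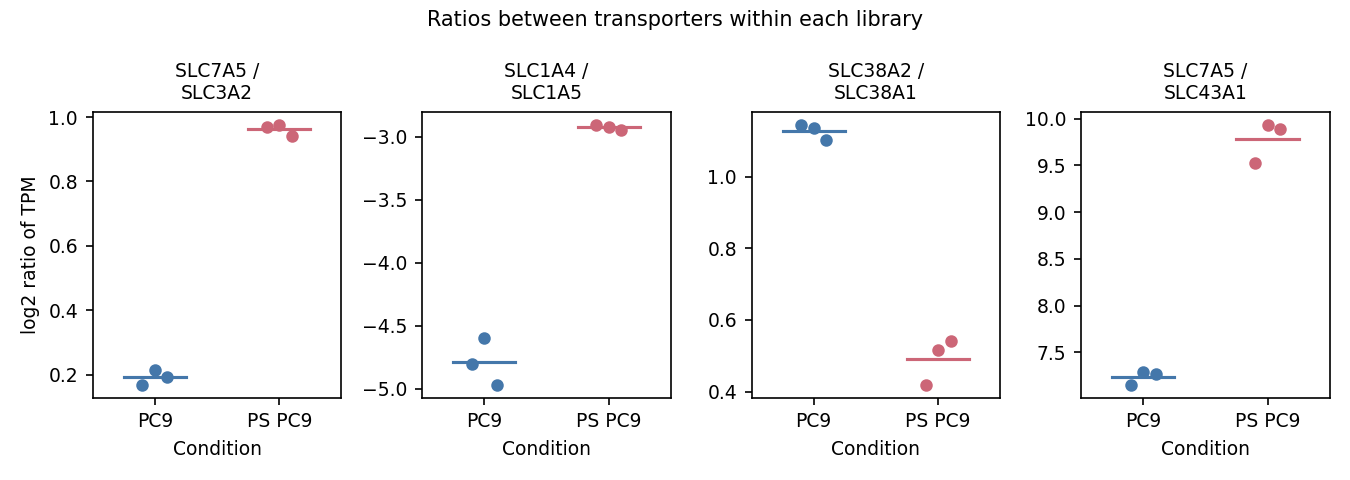
Log2 ratio of TPM between 2 transporters in each library, 1 panel per ratio, with a bar at the mean of 3 libraries and a separate axis for each panel. No panel shows overlap, and SLC38A2 to SLC38A1 is the panel in which PS PC9 lies lower, from a mean log2 ratio of 1.13 to 0.49.

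The 10 genes have 96 transcripts in the transcript table, of which 85 had a count and 58 passed the filter. Higher in PS PC9 were 11, in 8 of the genes, and none was lower, where 3.89% of all 54499 tested transcripts were higher and 3.91% lower (edgeR, adjusted p under 0.01). For 9 genes, relative usage of the transcripts within the gene could be tested, and it changed for SLC3A2 alone, as for 1.88% of 10545 genes tested. The transcripts of SLC7A1 could not be tested for usage, since only its transcript ENST00000380752 was expressed well enough.

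SLC7A5 reads went to ENST00000261622 and to ENST00000565644, which starts further in and codes for 241 rather than 507 residues. The first took 85.9% of them in PC9 and 84.6% in PS PC9, on average, and the edgeR usage test gave an adjusted p of 1.0. Both transcripts rose, from 786 ± 58.6 to 4315 ± 152 CPM and from 130 ± 25.5 to 786 ± 65.4 CPM (SD, n = 3). For SLC38A2, the main transcript ENST00000256689 was at 310 ± 13.2 CPM in PC9 and 328 ± 13.8 in PS PC9, with overlapping libraries and an edgeR adjusted p of 0.334. Reads of SLC43A1 moved between ENST00000528450 and ENST00000278426 from library to library, with 0, 58 and 22 reads against 72, 21 and 75 in PC9 and 91, 3 and 58 against 10, 82 and 33 in PS PC9, so these few reads give no stable share.

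SLC3A2 has 2 groups of transcript starts, far apart in the gene. Those upstream begin between bases 62856102 and 62856168 of chromosome 11, and those downstream between 62880342 and 62887870, with the main start at 62880896. In the usage test SLC3A2 had an adjusted Simes p of 2.03e-11 (edgeR). ENST00000338663, from the downstream start, codes for 529 residues and took 60.3%, 63.2% and 59.2% of the SLC3A2 reads in PC9 and 78.5%, 79.5% and 79.7% in PS PC9. It rose from 209 ± 22.5 to 882 ± 30.0 CPM, 2.08 on the log2 scale (SE 0.0825, edgeR adjusted p = 7.92e-05).

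From the upstream start, ENST00000377890, which codes for 630 residues, took 18.3%, 17.0% and 19.1% in PC9 and 8.27%, 7.10% and 7.88% in PS PC9. Its CPM were 62.0 ± 4.53 and 86.3 ± 6.52, and its log2 fold change of 0.48 (SE 0.0793) had an edgeR adjusted p of 0.0115 and did not pass the limit. ENST00000377891, of the same start region, went from 29.4 ± 7.15 to 49.8 ± 2.56 CPM (edgeR adjusted p = 0.0398), while ENST00000535296, also upstream, rose from 18.7 ± 2.79 to 59.6 ± 2.62 CPM and held its share at 5.50% and 5.35%. The usage change was thus not the same for every upstream transcript.

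Grouping the transcripts by start, a choice made after their values were seen, gives 5 upstream and 18 downstream. The upstream group was at 112, 124 and 128 CPM in PC9 and at 215, 214 and 217 in PS PC9, 1.77 times higher. The downstream group was at 201, 244 and 218 CPM in PC9 and at 871, 895 and 929 in PS PC9, 4.07 times higher. The downstream share was 63.1% to 66.3% in PC9 and 80.2% to 81.1% in PS PC9, without overlap (exact two-sided permutation p = 0.1, the smallest possible). Reads of the shared exons were divided between these transcripts by estimation. As printed above, neither the window at the upstream start nor the one before the main downstream start holds the core element. The SLC3A2 match begins 37 bases after base 62881699, a minor start within the downstream region.

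**Figure D4:**
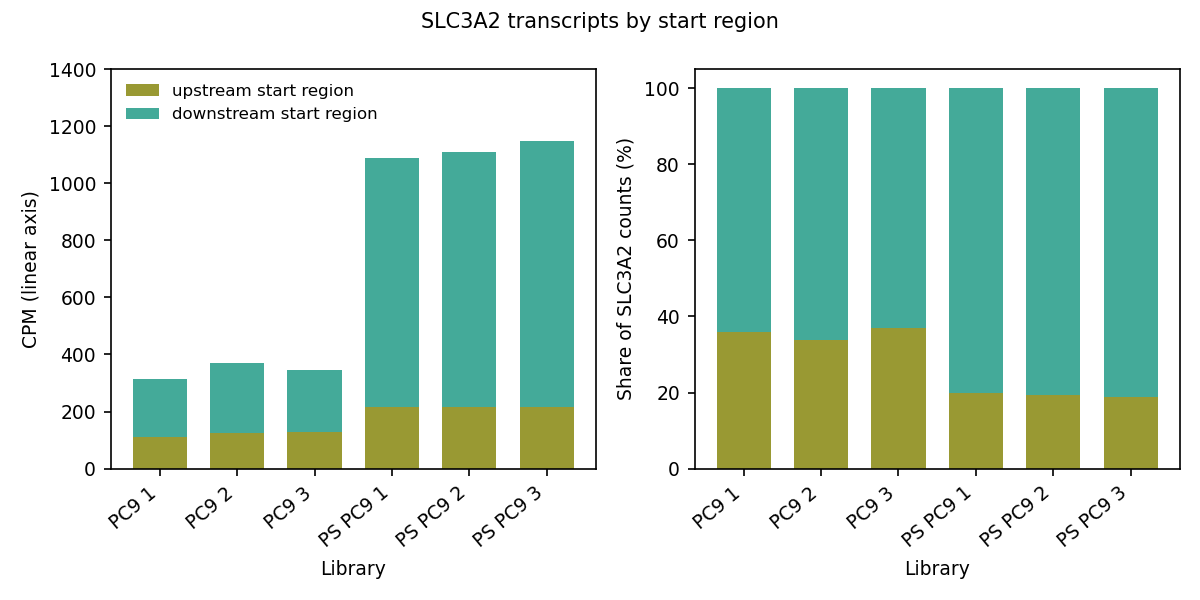
SLC3A2 reads by transcript start region in each library, as stacked CPM (left) and as a share of all SLC3A2 transcript counts in percent (right). Both regions are higher in PS PC9 in CPM, and the downstream share goes from 63.1% to 66.3% up to 80.2% to 81.1%.

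Related genes were read from lists in the same way. A list of 34 other plasma membrane carriers held amino acid carriers and also SLC15A1 and SLC15A2, which carry small peptides. Of the 34, 17 passed the filter, and 9 were higher (52.9%, beside 28.7% of all genes), 2 lower (11.8%, beside 28.1%) and 6 not called. The median log2 fold change was 0.44. SLC15A2 was among those higher (log2 0.91), and SLC15A1 was not called. SLC3A2 also serves as heavy chain for other light chains, and those named by the rule rose: the cystine-glutamate exchanger SLC7A11 (from 454 to 986 CPM, log2 1.12) and the exchangers of cationic and neutral amino acids SLC7A6 (71.1 to 108 CPM, log2 0.60) and SLC7A7 (4.22 to 10.9 CPM, log2 1.37). Another light chain, SLC7A8 (LAT2), added after its values were seen, rose from 4.14 to 6.05 CPM (log2 0.55), and SLC7A10 was at 0 in every library. SLC7A2, a cationic carrier, rose from 6.54 to 15.7 CPM (log2 1.26). Lower were SLC1A6, a glutamate transporter (3.43 to 1.48 CPM), and SLC6A14, a broad sodium- and chloride-coupled carrier with 91 reads over all libraries.

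Of 22 carriers of lysosomes and mitochondria, 19 were tested, with 9 higher (47.4%, beside 28.7% of all genes), 3 lower (15.8%, beside 28.1%) and 7 not called and a median of 0.14. MFSD12, which imports cysteine into lysosomes, rose by 1.05 on the log2 scale, the mitochondrial aspartate-glutamate carrier SLC25A13 by 0.78, the lysosomal glutamine carrier SLC38A7 by 0.73 and SLC36A4 by 0.52. Lower were SFXN3 at -0.54, SLC25A29 at -0.52 and SLC15A4 at -0.26, of which SLC25A29 lost its call in 6 of 14 alternative fits (DESeq2, and without any 1 library but PC9 replicate 1) and SLC15A4 in 5 (DESeq2, and without any 1 of PC9 replicates 2 and 3 and PS PC9 replicates 1 and 2). With gene counts summed from transcripts SFXN3 was at -0.82 and was not called (edgeR adjusted p = 0.265). Of 26 carriers of other nutrients, 13 were higher (beside 28.7% of all genes) and 8 lower (30.8%, near the 28.1% of all genes), with a median of 0.25. As single genes, the vitamin carrier SLC5A6 (log2 1.14), the carnitine carrier SLC22A5 (1.00), the lactate carrier SLC16A1 (0.99) and the fatty acid carrier SLC27A4 (0.84) rose, while SLC27A1 (-1.34), the glucose transporters SLC2A12 (-1.02) and SLC2A1 (-0.41) and the lactate exporter SLC16A3 (-0.70) fell.

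Genes of amino acid sensing towards mTORC1 showed no common direction, with 14 higher (37.8%, beside 28.7% of all genes), 8 lower (21.6%, beside 28.1%) and 15 not called of 37 tested and a median of 0.06. SESN2, the leucine sensor of the sestrin family, rose from 15.3 to 48.2 CPM (log2 1.65) and MTOR itself from 71.6 to 128 CPM (log2 0.84), and ITFG2 and FLCN rose by 0.77 and 0.61. NPRL2 fell by 0.59, LAMTOR4 by 0.47, WDR59 by 0.42 and LAMTOR5 by 0.31. Of 29 tested enzymes of glutamine, asparagine, proline, arginine, glycine and branched-chain amino acids, 7 were higher (24.1%), 9 lower and 13 not called, with a median of 0.02, shares near the 28.7% and 28.1% of all genes. As single genes, asparagine synthetase ASNS (log2 1.09), the alanine transaminase GPT2 (1.09) and the branched-chain transaminase BCAT1 (1.02) rose. The branched-chain ketoacid dehydrogenase subunits BCKDHB (-0.71) and BCKDHA (-0.45), the leucine breakdown enzyme MCCC1 (-0.57) and glutamate dehydrogenase GLUD1 (-0.36) fell.

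**Figure D5:**
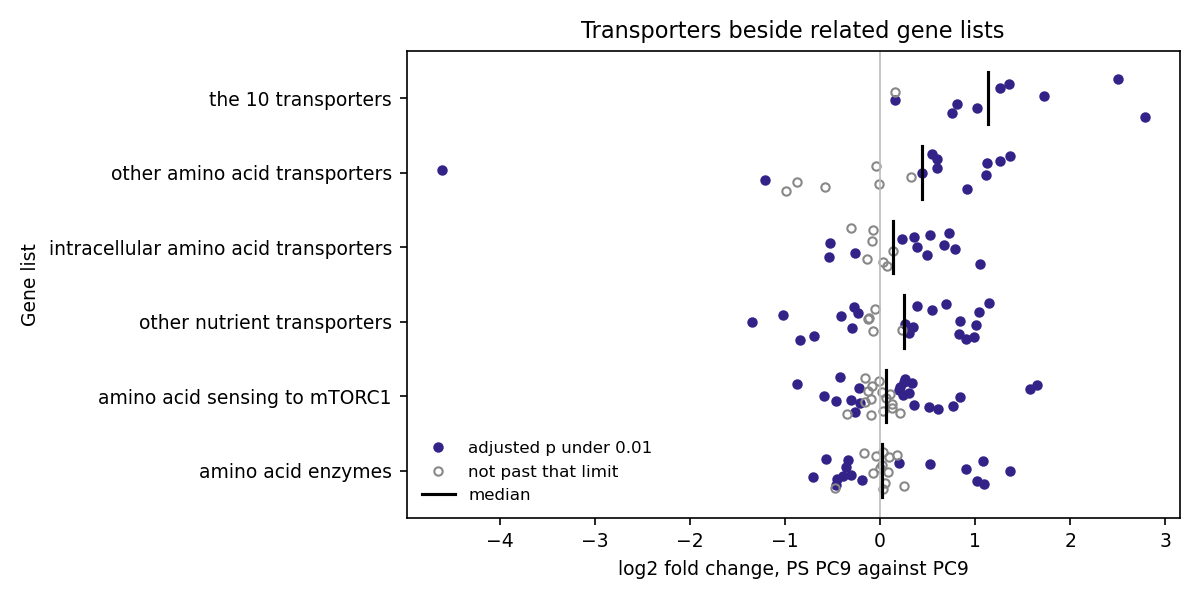
Log2 fold change of PS PC9 against PC9 for each tested gene of 6 lists, filled where the adjusted p was under 0.01, with a bar at the median of the list. The 10 transporters have a median of 1.14, the other amino acid transporters 0.44 and the mTORC1 sensing genes 0.06.

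Several other properties of the libraries moved with the condition, and their part in the transporter values was not tested. Summed proliferation genes were at 1849 to 1926 CPM in PC9 and at 2498 to 2519 in PS PC9. Of these 12 genes, 8 were higher (66.7%, beside 28.7% of all genes), among them FOXM1 (log2 0.90) and PLK1 (0.67). None was lower, beside 28.1% of all genes. The paper describes PS PC9 cells as cycling more slowly than PC9 cells, and these mRNA levels run the other way. They are no measure of growth, and the reason for the difference was not tested. All 6 epithelial markers were expressed, with a summed level of 7519 to 8051 CPM in PC9 and 5936 to 6298 in PS PC9. Of these, EPCAM, KRT8, KRT18 and KRT19 were lower and CDH1 (log2 0.60) and KRT7 (0.46) higher. Markers of other cells were low: fibroblast markers summed to 10.1 to 10.7 CPM and 26.5 to 30.1 CPM, nearly all COL1A1, with COL3A1 at 0. Endothelial markers summed to 8.05 to 8.82 and 3.25 to 3.80 CPM with CLDN5 at 0, and leukocyte markers to 1.28 to 1.42 and 0.439 to 0.508 CPM with CD3E at 0. Mitochondrially encoded reads made up 1.90% to 3.37% in PC9 and 3.39% to 3.96% in PS PC9, ranges that nearly met. Total gene counts overlapped, at 33022223 to 34029544 in PC9 and 29476725 to 34893782 in PS PC9.

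The genes whose profile over the 6 libraries lay nearest to that of SLC7A5, by Euclidean distance between centred log2 CPM, were ID3 (distance 0.0649), GRK3 (0.145) and CPA4 (0.146). ID3, an inhibitor of basic helix-loop-helix factors, went from 11.3 ± 0.663 to 65.2 ± 1.44 CPM (SD, n = 3), a log2 fold change of 2.53. GRK3, a kinase of G protein-coupled receptors, and the carboxypeptidase CPA4 rose by 2.61 and 2.59 from 1.21 and 4.65 CPM. Among the other transporters SLC1A4 was nearest at 0.351 and SLC3A2 next at 0.952. With 2 conditions, this distance mainly orders genes by the size of their change.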

How the data were processed

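The labels gave each library's condition and number, and the study's text gave the dose, the time and the pooling of dishes. The authors made poly-A libraries and pseudoaligned the reads with kallisto 0.46.1 to human transcripts, and the deposited values are kallisto's estimated counts in whole numbers, not normalised, per gene symbol and per transcript. Whether the libraries keep strand is not given in the sources used here. Sleuth, which the study used, needs kallisto's own repeat estimates, not used here, so edgeR took its place and the error of assigning reads to transcripts enters no test. Other laboratories' libraries that the study added were not analysed here. All columns with per-sample values were used (0 unused).

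Gene and transcript counts were tested in R 4.3.3 with edgeR 4.0.16 (filterByExpr, TMM, glmQLFit, glmQLFTest, no block, Benjamini-Hochberg limit 0.01), and usage with diffSpliceDGE and Simes p-values. CPM are TMM-normalised. SE is the log2 fold change divided by the square root of F. TPM were computed from transcript counts and GENCODE 44 lengths for the 167067 of 188753 transcripts that matched, with 95.8% of the counts in each library. Coordinates are from that annotation, on GRCh38, and 84 of 96 transporter transcripts had the same version in both, not including ENST00000338663. Exact two-sided permutation tests used SciPy 1.17.1. The scripts were tested on simulated data. The PC9 cultures and PS PC9 pools are separate, and the p-values cover the spread between these 6 libraries alone.

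The transporters and gene lists were chosen with earlier results of these data known, and some transporters belonged to a list of ATF4 targets examined then. Genes named from a list are up to 4 with the smallest p per direction among called members, transcripts named are among those with at least 5% of their gene's counts, and the 3 genes nearest to SLC7A5 were added. Some items that this rule selects are not reported here. Alternatives were DESeq2 1.42.0, limma 3.58.1 voom, RLE and upper-quartile scaling, library size only, no filter, gene values summed over transcripts, the replicate number as a block and each library left out.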

Additional observations from a re-analysis of the deposited data

How the results depend on the processing

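Of the 10 transporters, 8 or 9 were called higher in every alternative fit at the limit of 0.01, and no direction changed. SLC38A2 was the gene lost, and the remaining called genes had adjusted p-values of at most 6.71e-06 in all 14 alternative fits, SLC43A1 staying uncalled. Library size only and upper-quartile scaling moved the median of all genes to -0.0594 and -0.0491 on the log2 scale. The replicate numbers share no stated source, and deviations of same-numbered libraries correlated at 0.124, 0.024 and 0.022. With the replicate block the called transcripts of the transporters fell from 11 to 7, while without any 1 library they were 9 to 12. Calls over all transcripts were not counted in these fits, so the changes cannot be called particular to the transporters. At gene level, over all genes, the block called 4382 higher and 4289 lower, against 4193 and 4114. The one reversed value was that of the SLC43A1 transcript ENST00000278426, at 0.0909 without PS PC9 replicate 1 and -0.36 with all libraries (lowest -1.35, without PS PC9 replicate 2), and the cause was not tested. The usage change of SLC3A2 alone held in each alternative, and its downstream share differed by 15.5 to 17.1 percentage points without any 1 library, an alternative chosen after seeing the data. Few reads limit SLC43A1, and the scaling and the spread between 3 libraries limit the call of SLC38A2.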

Other observations

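The transporters also varied less between the PS PC9 libraries. The coefficient of variation of CPM was lower in PS PC9 than in PC9 for 9 of the 10, with a median of 6.29% in PC9 and 2.32% in PS PC9. Over all 14626 tested genes it was lower in PS PC9 for 60.9%, with medians of 5.87% and 4.43%. PC9 replicate 1 was the lowest PC9 library for 7 of the 10 transporters and PC9 replicate 2 the highest for 6. SLC38A1 and SLC38A2 ran the other way, with replicate 1 highest and replicate 2 lowest. This order of libraries was not counted over all genes, so it cannot be called particular to the transporters. Only the PS PC9 libraries are stated to be pools of several cultures, and the part of pooling in the lower variation was not tested.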
